A study of Homo sapiens with 27 samples.

Results

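The 10 genes described here belong to the YAP/TEAD pathway or are widely used as its transcriptional targets: CCN1, CCN2, ANKRD1, AMOTL2, AJUBA, LATS2, AMOTL1, YAP1, WWTR1 and TEAD1. They were taken by gene symbol from a table of 36536 genes, and each matched 1 row of the table. Expression had been measured by RNA sequencing in MCF10A, an established line of non-tumorigenic human mammary epithelial cells, in 27 libraries that formed 9 groups of 3. The question posed by the series is how cells respond to combined signals, compared with each signal alone. Before treatment all groups had been kept in the same way, in a growth medium that held 20 ng/ml epidermal growth factor (EGF) and then for 18 h in a medium free of growth factors. The T0 group was untreated and had its RNA taken at 0 h. The PBS group received only phosphate-buffered saline as the vehicle and was taken at 24 h, as were the 7 treated groups. Those received 10 ng/ml of EGF, of oncostatin M (OSM, an interleukin-6 family cytokine) or of transforming growth factor beta (TGFB), or EGF+OSM, EGF+TGFB, OSM+TGFB or EGF+OSM+TGFB, with each ligand at that same dose. All groups come from 1 cell line on collagen-coated plastic, and the labels do not say whether the 3 libraries of a group are separate cultures, so p-values measure the spread between these samples, which may be technical.

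YAP (encoded by YAP1) and TAZ (encoded by WWTR1) are coactivators that cannot bind DNA themselves. In the nucleus they join the TEAD factors, of which TEAD1 is a member, and switch on genes such as CCN1, CCN2 and ANKRD1. The Hippo kinases, with LATS2 among the last in the chain, phosphorylate YAP and TAZ and hold them in the cytoplasm. Angiomotin-family proteins (AMOTL1, AMOTL2) bind YAP at cell junctions, and the LIM-domain protein AJUBA binds and restrains LATS kinases. AMOTL2, LATS2 and AJUBA are also described as YAP targets themselves. Because the pathway is controlled mostly by phosphorylation and location of YAP and TAZ, transcript levels such as those below do not measure its activity directly.

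The promoters of the 2 genes most often used as readouts are shown here because CCN2 had the widest called response of the 10 genes and ANKRD1 stood out in a single combination. The capitals mark the TEAD core GGAATG. Read on the other strand, it is CATTCC. Windows cover 250 bases before the RefSeq start on GRCh38.p14, written 5′ to 3′ along the gene. The CCN2 window is chr6:131951373-131951622 on the minus strand and the ANKRD1 window is chr10:90921088-90921337, also on the minus strand. Neither overlaps an exon annotated in GENCODE v44.
CCN2: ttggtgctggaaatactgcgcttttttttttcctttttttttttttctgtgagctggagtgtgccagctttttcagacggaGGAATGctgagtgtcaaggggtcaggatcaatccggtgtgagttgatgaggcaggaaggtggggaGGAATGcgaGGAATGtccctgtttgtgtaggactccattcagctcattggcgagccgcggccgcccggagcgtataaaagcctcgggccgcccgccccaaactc
ANKRD1: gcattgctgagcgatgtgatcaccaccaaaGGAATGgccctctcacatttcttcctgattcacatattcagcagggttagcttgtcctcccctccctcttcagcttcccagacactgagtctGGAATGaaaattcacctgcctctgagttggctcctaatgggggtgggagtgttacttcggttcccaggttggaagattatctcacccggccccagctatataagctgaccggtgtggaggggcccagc
AMOTL2: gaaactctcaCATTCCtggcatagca
AJUBA: gaagttggctGGAATGaagccaaagc
YAP1: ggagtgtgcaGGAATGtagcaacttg
The other 3 lines show only a core with its neighbouring bases: AMOTL2 at chr3:134374501-134374526 (minus strand), AJUBA at chr14:22976886-22976911 (minus strand) and YAP1 at chr11:102110275-102110300 (plus strand). The AMOTL2 and AJUBA stretches lie within the annotated span of their gene, the YAP1 stretch lies before it, and all 3 overlap an annotated exon.

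CCN2 held 3 TEAD cores, at 169, 104 and 95 bases before its start, a number found in 29 of 35116 RefSeq windows of this length (0.0826%). ANKRD1 held 2 cores, at 220 and 128 bases, while 0.94% of windows held as many or more. Among the 8 members with a window, only ANKRD1 had an AP-1 core (TGANTCA on either strand). It was TGATTCA at 195 bases, with no overlap with a TEAD core, and the motif was present in 6.57% of windows. AMOTL2 held 1 core at 69 bases in 1 of its 2 windows, AJUBA 1 core at 59 bases in 1 of its 2, and YAP1 1 core at 162 bases. No match was found in the windows of LATS2, AMOTL1 and WWTR1. CCN1 and TEAD1 had no window and were not searched. In all, 5 of the 11 windows of the 8 members held at least 1 core, as did 11.9% of all windows. In GENCODE v44 (GRCh38), CCN1 spans chr1:85580761-85584589, CCN2 chr6:131948176-131951372, ANKRD1 chr10:90912096-90921087, AMOTL2 chr3:134355347-134375479, and AJUBA chr14:22971177-22982551. The span of LATS2 is chr13:20973036-21061586, of AMOTL1 chr11:94706431-94876748, of YAP1 chr11:102110447-102233424, of WWTR1 chr3:149517235-149736714, and of TEAD1 chr11:12674421-12944737. A match of letters is a description and shows neither binding nor its absence.

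Libraries totalled 30.1 to 52.9 M (mega) counts. The level of a gene is its count per 1 M of all counts in the library (CPM) after scaling between libraries, which allows groups but not genes to be compared. Differences are log2 fold changes with their standard error (SE) from a model of all 15575 genes that had enough counts, and a gene was called when its p, adjusted over those genes, was under 0.05. Pairs of replicates differed by more than counting noise (chi-square over its degrees of freedom, 6.84 to 33.9), so each library was counted by itself. Epithelial markers fitted the label of the line: the basal genes KRT5, KRT14, KRT17, TP63, ITGA6, CDH3 and EGFR and the general epithelial gene CDH1 were present in every group. KRT5 lay between 3313 and 9188 CPM over the libraries. Of the 5 markers of luminal, hormone-sensing cells, 4 had enough counts to be tested (KRT8, KRT18, GATA3 and ESR1), while PGR reached at most 1 count in a library. Their summed level, most of it KRT8 and KRT18, was 514 to 554 CPM in T0 and 398 to 421 CPM in PBS. It was 385 to 594 CPM in the treated libraries without TGFB, 504 to 903 CPM with TGFB, EGF+TGFB or OSM+TGFB, and 1056 to 1119 CPM with all 3 ligands. GATA3 and ESR1 went the other way from PBS to all 3 ligands. GATA3 went from 26.3 ± 1.38 to 11.2 ± 0.75 CPM and ESR1 from 1.12 ± 0.07 to 0.48 ± 0.07 CPM (SD, n = 3). COL3A1 and CD3E, which mark stromal and T cells, reached at most 2 and 5 counts. Of the 8 markers of stroma, immune cells and endothelium, 3 had enough counts to be tested (COL1A1, CD68 and PECAM1). The sum over all 8 was 83.9 to 147 CPM in libraries with TGFB and 34.7 to 72.4 CPM in all other libraries. COL1A1 ranged from 4.84 ± 0.90 CPM in EGF+OSM to 111 ± 6.28 CPM in TGFB, and CD68 from 21.9 ± 1.57 CPM in EGF to 46.9 ± 3.07 CPM in OSM+TGFB (SD, n = 3). The part of these markers in the results below was not tested. All 10 members passed the filter on low counts, but ANKRD1 had at most 50 counts in any library and its values are precise only to that extent. In these bulk samples, a change in the share of cells that express a gene and a change in its RNA per cell cannot be told apart.

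**Figure D1:**
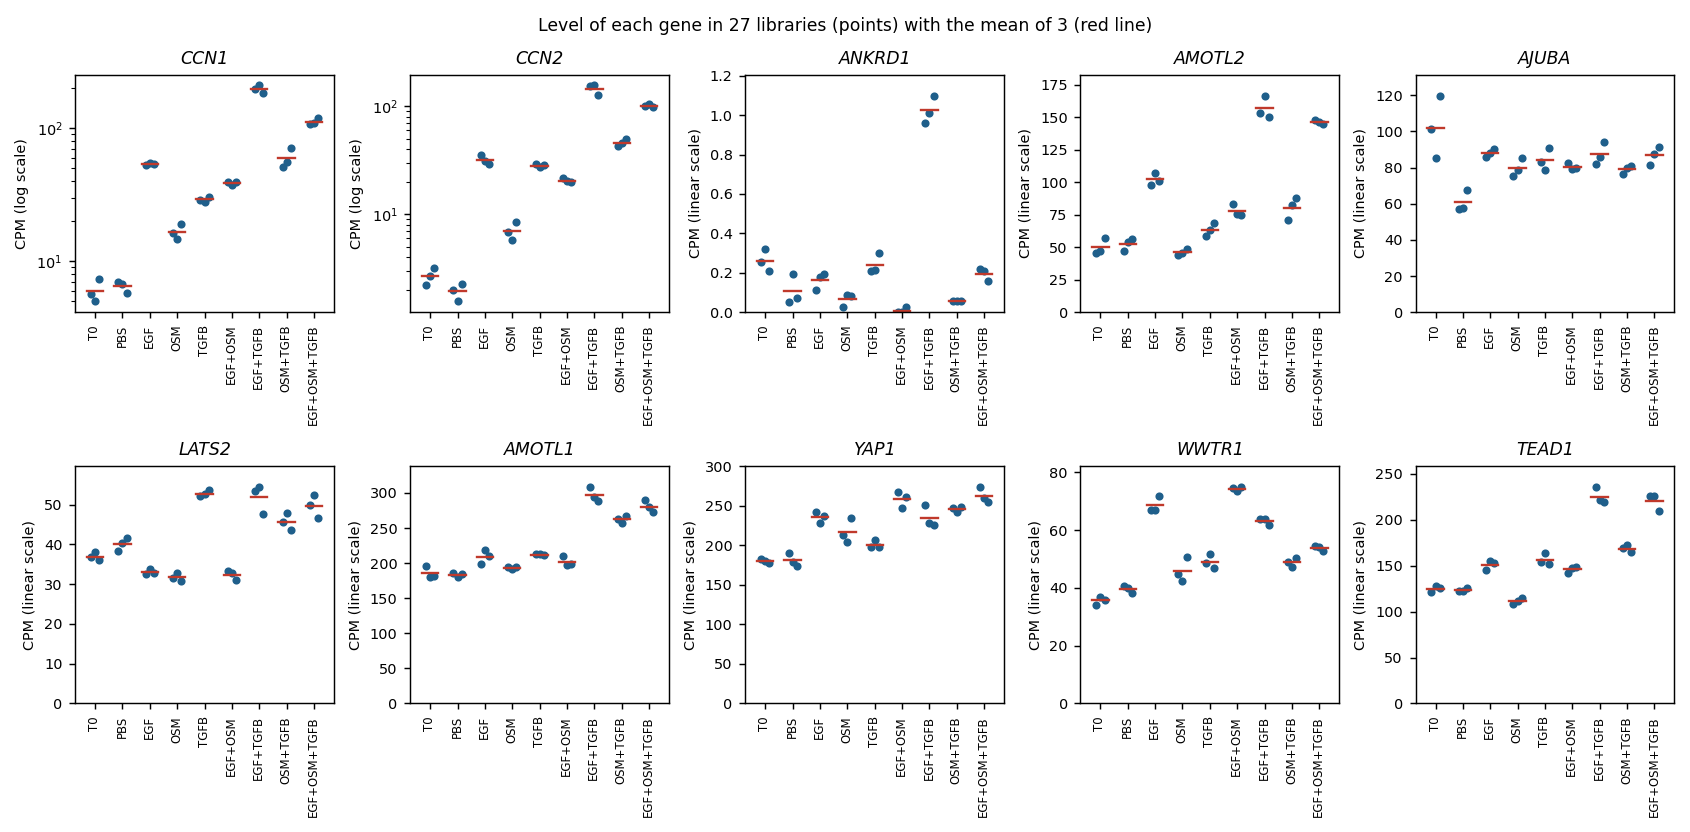
Level of each gene (CPM, on a log axis for CCN1 and CCN2 and on a linear axis from 0 for the others) in the 9 groups; points are the 27 libraries and red lines are means of 3. CCN1, CCN2, ANKRD1, AMOTL2, AMOTL1 and TEAD1 have their highest mean in EGF+TGFB, WWTR1 in EGF+OSM, LATS2 in TGFB, YAP1 in EGF+OSM+TGFB and AJUBA in T0.

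CCN1 and CCN2, which encode secreted matricellular proteins and are the best known YAP/TAZ targets, rose in all 7 treatments. CCN1 was at 7.004, 6.73 and 5.77 CPM in the PBS libraries. It reached 52.7, 54.9 and 54.0 CPM with EGF, 29.1, 28.1 and 30.2 CPM with TGFB, and 16.2, 14.8 and 19.0 CPM with OSM. No library of a single ligand overlapped with PBS or with another ligand. Fold changes over PBS were 8.28 for EGF (log2 3.05 ± 0.12 SE, adjusted p = 3.6e-16), 4.48 for TGFB (2.16 ± 0.12, 9.85e-13) and 2.56 for OSM (1.36 ± 0.12, 1.3e-09), n = 3 libraries each, by edgeR's quasi-likelihood test.

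CCN2 started lower relative to its later levels, at 2.001, 1.55 and 2.27 CPM in PBS. EGF brought it to 35.7, 31.1 and 29.1 CPM, TGFB to 29.1, 27.2 and 28.3 CPM, and OSM to 6.78, 5.70 and 8.42 CPM. EGF and TGFB were not told apart for CCN2 (32.0 ± 3.34 and 28.2 ± 0.963 CPM, SD), although their libraries just missed overlapping. The CCN2 fold changes over PBS were 16.6 for EGF (log2 4.05 ± 0.14 SE, adjusted p = 3.47e-17), 14.6 for TGFB (3.87 ± 0.14, 6.26e-16) and 3.59 for OSM (1.84 ± 0.16, 3.93e-10).

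Pairs that held TGFB carried both genes further. In EGF+TGFB, CCN1 stood at 196, 209 and 184 CPM and CCN2 at 153, 156 and 128 CPM, which was 30.2-fold (log2 4.92 ± 0.12 SE) and 75.6-fold (6.24 ± 0.14) over PBS, with adjusted p of 4.16e-20 and 4.3e-21. These were the highest levels of both genes in the data set, with no overlap with any other group. OSM+TGFB gave 51.3, 55.8 and 70.5 CPM of CCN1 and 42.9, 45.2 and 50.1 CPM of CCN2. With all 3 ligands CCN1 was at 107, 109 and 119 CPM and CCN2 at 100.1, 105 and 98.1 CPM, below EGF+TGFB in every library. EGF+OSM, the pair without TGFB, stayed under EGF alone: 39.0, 37.6 and 39.1 CPM for CCN1 and 21.5, 20.2 and 19.7 CPM for CCN2.

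Ordered by mean, CCN1 ran from EGF+TGFB through EGF+OSM+TGFB, OSM+TGFB, EGF, EGF+OSM, TGFB and OSM to PBS and T0, and 6 of the 8 steps between neighbours were told apart. The steps not told apart were OSM+TGFB to EGF (adjusted p = 0.242) and PBS to T0 (0.507). The order for CCN2 was the same except that TGFB came before EGF+OSM and T0 before PBS. For CCN2 only EGF and TGFB could not be separated (adjusted p = 0.127), and the last step, T0 to PBS, was called while its libraries overlapped.

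ANKRD1, an ankyrin-repeat protein of striated muscle whose gene is a standard YAP/TAZ readout, was scarcely detected outside 1 group. Its counts in PBS were 2, 9 and 3, and those in EGF, OSM and TGFB were 5, 9 and 8, then 1, 4 and 3, then 8, 9 and 11. In EGF+TGFB they were 35, 50 and 32, or 0.962, 1.01 and 1.097 CPM, and no other library exceeded 0.321 CPM. Summed over libraries and corrected for depth, ANKRD1 in EGF+TGFB was 9.25-fold PBS (117 against 14 counts; exact 95% interval 5.30 to 17.5), 6.30-fold EGF (22 counts; 3.97 to 10.4) and 4.24-fold TGFB (28 counts; 2.79 to 6.65), with intervals that cover counting error only. The rise over PBS was called (adjusted p = 1.18e-07), with a fitted log2 fold change of 3.20 that became 3.98 without replicate 2 of PBS.

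Groups with OSM had few ANKRD1 counts, and so did PBS, at 2, 9 and 3. Counts were 0, 0 and 1 in EGF+OSM, 2, 2 and 2 in OSM+TGFB, and 9, 6 and 5 with all 3 ligands. PBS exceeded EGF+OSM by 13.1-fold (14 against 1 count; exact 95% interval 1.999 to 556) and TGFB exceeded OSM+TGFB by 4.197-fold (28 against 6; 1.71 to 12.4), and both differences were called (adjusted p = 0.000625 and 0.00219). EGF+TGFB exceeded the 3 ligands together by 5.17-fold (117 against 20; 3.20 to 8.77; adjusted p = 3.96e-05). OSM and OSM+TGFB were not called below PBS for ANKRD1 (log2 -0.66 and -0.89, adjusted p = 0.34 and 0.215), nor in any alternative. Against PBS alone, EGF, TGFB and EGF+OSM+TGFB were also not called for ANKRD1 (adjusted p = 0.298, 0.0578 and 0.119). Replicate 2 of PBS held 9 of the 14 PBS counts, and without it all 3 comparisons were called (0.0479, 0.00813 and 0.0161). Leaving it out also moved the fitted EGF+OSM value against PBS from -3.28 to -2.49 and that of PBS against T0 from -1.26 to -2.04. Without replicate 3 of EGF+OSM, which held the 1 count of that group, the group was at 0 and the fitted values against it moved further from 0 (EGF+OSM against PBS to -5.16).

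AMOTL2, the angiomotin-like scaffold that is also a YAP target, followed the CCN genes at smaller size, except with OSM alone. The PBS libraries were at 47.3, 53.7 and 56.3 CPM, those with EGF at 97.9, 107 and 101 CPM, and those with OSM at 43.9, 45.6 and 48.9 CPM. EGF raised it 1.95-fold (log2 0.96 ± 0.08 SE, adjusted p = 1.72e-10), while OSM and PBS overlapped (-0.18 ± 0.09, adjusted p = 0.062). That OSM difference was called in 7 alternatives, among them without replicate 1 of PBS (-0.25, adjusted p = 0.0192) and without replicate 3 of OSM (-0.23, 0.0464). TGFB alone gave 58.6, 63.2 and 68.9 CPM (0.28 ± 0.08, 0.0112), a call lost without replicate 1 of PBS (0.21, 0.0832) or replicate 3 of TGFB (0.22, 0.0756). In EGF+TGFB it was at 154, 166 and 151 CPM, 2.99-fold PBS (1.58 ± 0.08, 1.22e-14), and with all 3 ligands at 148, 147 and 145 CPM, 2.80-fold PBS. The last 2 groups did not overlap but were not told apart (adjusted p = 0.427).

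AJUBA moved as a step. It was lowest in PBS, at 57.3, 57.7 and 67.5 CPM, and highest in T0, at 101, 85.5 and 119 CPM. T0 was told apart from EGF, the next group by mean (adjusted p = 0.0293), although their libraries overlapped. All 7 treated groups had means between 79.0 ± 2.27 and 88.0 ± 2.35 CPM (SD, n = 3), and none was told apart from its neighbour among them. All 7 were called above PBS with log2 fold changes of 0.38 to 0.53. With OSM+TGFB, the lowest of them, AJUBA was at 76.4, 79.7 and 80.8 CPM (0.38 ± 0.09 SE, adjusted p = 0.000516). No call was made for AJUBA in the 9 comparisons that added a ligand to others (0 of 9 by edgeR and 0 of 9 by DESeq2, with the lowest unadjusted p at 0.129), with log2 differences of -0.13 to 0.14 and the lowest adjusted p at 0.196. With only the compared groups in the fit, OSM added to EGF was called (-0.16, adjusted p = 0.0118).

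LATS2, the Hippo kinase that restrains YAP and TAZ, divided the groups by TGFB. The 4 groups with TGFB had means of 45.7 ± 2.13 to 52.8 ± 0.775 CPM and the 3 treated groups without it 31.7 ± 0.978 to 33.0 ± 0.669 CPM, with PBS at 38.3, 40.4 and 41.6 CPM between them. TGFB alone gave 52.1, 52.6 and 53.6 CPM, 1.32-fold above PBS (log2 0.40 ± 0.05 SE, adjusted p = 1.56e-06). OSM alone gave 31.6, 32.8 and 30.9 CPM, 1.26-fold below it (-0.34 ± 0.05, 6.1e-06), and EGF 32.5, 33.8 and 32.9 CPM, 1.21-fold below it (-0.28 ± 0.05, 5.01e-05). At these scaled levels, every library of the 4 groups lay above every PBS library, and every library of the other 3 lay below. The scaling factors differed between groups, with 1.08 to 1.12 in PBS and 0.871 to 0.888 in OSM+TGFB. Levels without scaling were not compared. The rise with OSM+TGFB (0.19 ± 0.05, 0.00346) was not called under upper-quartile scaling (0.10, 0.106).

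AMOTL1, the second angiomotin-like scaffold, rose most where TGFB was combined with another ligand. It was at 187, 179.6 and 184 CPM in PBS, 308, 294 and 289 CPM in EGF+TGFB, 263, 258 and 267 CPM in OSM+TGFB and 289, 280.3 and 272 CPM with all 3. The fold changes over PBS were 1.62, 1.43 and 1.53 in that order (log2 0.69, 0.52 and 0.61, SE 0.04 each), with adjusted p of 1.16e-13, 5.38e-11 and 1.2e-12. TGFB alone gave only 1.16-fold (0.21 ± 0.04, 0.000309) and EGF alone 1.14-fold (0.19 ± 0.04, 0.00031), with libraries of 212 CPM in all 3 cases and of 198, 219 and 210.1 CPM. OSM alone (0.07 ± 0.04, 0.133) was not called, and the call for EGF+OSM (0.14 ± 0.04, 0.00443) was lost under upper-quartile scaling (0.06, 0.228).

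YAP1 itself varied least in level, 1.46-fold between its highest and lowest group means. PBS libraries were at 191, 178 and 174 CPM. EGF gave 242, 228 and 238 CPM (1.302-fold, log2 0.38 ± 0.05 SE, adjusted p = 3.24e-07) and OSM 213, 204 and 235 CPM (1.20-fold, 0.26 ± 0.05, 9.75e-05). The highest groups were EGF+OSM at 268, 247 and 261 CPM (1.43-fold, 0.51 ± 0.05) and EGF+OSM+TGFB at 273, 261 and 255 CPM (1.45-fold, 0.54 ± 0.05). At these scaled levels no treated library overlapped with PBS. The scaling factors were 1.08 to 1.12 in PBS and 1.04 to 1.06 in TGFB, and levels without scaling were not compared. The small rise with TGFB alone (0.15 ± 0.05, 0.026) was lost without replicate 2 or 3 of PBS (adjusted p = 0.0803 and 0.118) or replicate 2 of TGFB (0.103). It was also lost under upper-quartile scaling (0.12, 0.0814) and with no filter on low counts (0.13, 0.117).

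WWTR1, which encodes TAZ, stood highest in EGF+OSM and EGF. It stood at 40.5, 40.04 and 38.1 CPM in PBS, 67.0, 66.8 and 71.7 CPM with EGF, 74.5, 73.4 and 74.7 CPM with EGF+OSM, and 44.7, 42.5 and 50.8 CPM with OSM. EGF raised it 1.73-fold (log2 0.79 ± 0.05 SE, adjusted p = 9.32e-13) and EGF+OSM 1.88-fold (0.91 ± 0.05, 3.8e-14). With all 3 ligands it was at 54.6, 54.0 and 52.9 CPM, 1.36-fold PBS (0.44 ± 0.05, 4.43e-08) and below every EGF, EGF+OSM and EGF+TGFB library. YAP and TAZ are paralogs with overlapping roles. EGF+OSM, the highest group for WWTR1, was not told apart from the highest group for YAP1 (adjusted p = 0.727 for YAP1).

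TEAD1, the DNA-binding partner, rose with TGFB and EGF and fell with OSM. PBS libraries were at 123, 122 and 126 CPM, those of TGFB at 154, 164 and 152 CPM, those of EGF at 145, 155 and 153 CPM, and those of OSM at 109, 111 and 115 CPM. OSM lay below PBS in every library (1.11-fold, log2 -0.15 ± 0.04 SE, adjusted p = 0.00452). EGF+TGFB reached 235, 221 and 219 CPM (1.82-fold, 0.87 ± 0.04, 2.07e-15) and all 3 ligands 226, 225 and 209.8 CPM (1.79-fold, 0.84 ± 0.04, 3.35e-15), which overlapped and were not told apart (0.665).

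**Figure D2:**
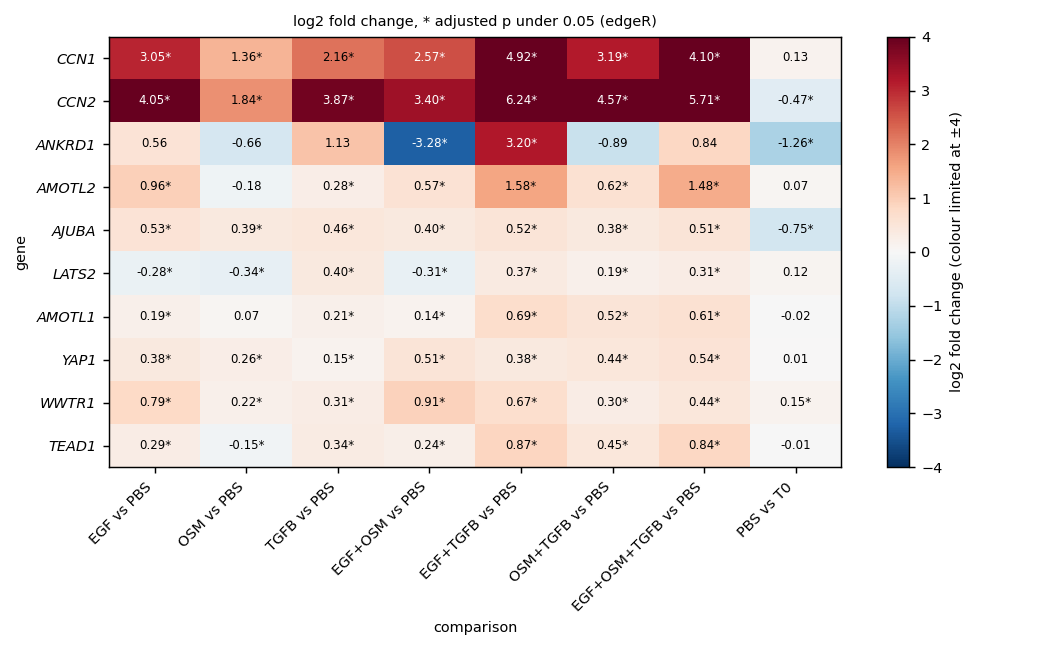
Log2 fold change of each gene (vertical axis) in the 7 treatments against PBS and in PBS against T0 (horizontal axis), printed in each cell and coloured on a scale limited at ±4; asterisks mark adjusted p under 0.05 by edgeR. CCN1 and CCN2 are called in all 7 treatments with 1.36 to 6.24, LATS2 changes sign with TGFB, and the ANKRD1 values rest on few counts and depend on the prior count.

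Counted over the 10 genes, EGF raised 8 and lowered 1, where 73.5% of all genes tested were called in either direction. OSM raised 5 and lowered 2 (63.4% called), and TGFB raised 9 and lowered 0 (35.6%). In EGF+OSM 8 rose and 2 fell (77.2%), in EGF+TGFB all 10 rose (73.7%), in OSM+TGFB 9 rose (66.0%), and with the 3 ligands 9 rose (74.4%). Most genes were called in 6 of these 7 comparisons, so a call by itself does not set the members apart. By direction, EGF raised 34.9% and lowered 38.6% of all genes tested, and EGF+TGFB raised 36.2% and lowered 37.5%. The median log2 fold change of the members was 0.55 for EGF, 0.15 for OSM and 0.37 for TGFB, beside -0.07, 0.00 and -0.01 over all genes tested. For EGF+TGFB it was 0.78 beside -0.04. All 7 comparisons use the same 3 PBS libraries, so they are not independent of each other.

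Over the 24 h without ligand, from T0 to PBS, 1 member rose and 3 fell, where 35.1% of genes were called. AJUBA fell by 0.75 on the log2 scale (SE 0.09, adjusted p = 2.95e-07). The other 3 calls were weak: CCN2 (-0.47 ± 0.18 SE, 0.0459), ANKRD1 (38 against 14 counts, 0.0288) and WWTR1 (0.15 ± 0.05, 0.0328). The CCN2 call was lost without replicate 2 or 3 of T0 or replicate 1 or 2 of PBS, the WWTR1 call without replicate 1 or 3 of T0 or replicate 1 or 2 of PBS, and the ANKRD1 call without replicate 1 or 2 of T0 or replicate 1 or 3 of PBS, so that 1 to 3 members were called. The CCN2 call was also lost under both other scalings (0.0586 and 0.0535). Their highest adjusted p values were 0.235, 0.132 and 0.146. CCN1, at 5.66, 5.00 and 7.32 CPM in T0, overlapped with PBS (0.13 ± 0.13, 0.507).

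Adding 1 ligand to others gives the effect of that ligand in each setting. TGFB added to EGF raised 7 members and lowered 0 (54.6% of all genes called). TGFB added to OSM also raised 7 and lowered 0 (51.6%), and TGFB added to EGF+OSM raised 7 and lowered 1 (61.1%). Under either of the other scalings 1 member also fell with TGFB added to EGF, WWTR1 (-0.14 and -0.15, adjusted p = 0.0381 and 0.0153). CCN1 rose 2.89 to 3.65-fold and CCN2 4.57 to 6.64-fold in these 3 settings. LATS2 rose 1.57, 1.44 and 1.54-fold and TEAD1 1.49, 1.51 and 1.51-fold. WWTR1 was raised by TGFB alone (log2 0.31 ± 0.05 SE) but lowered by TGFB added to EGF+OSM (-0.46 ± 0.05, adjusted p = 3.32e-08), from 74.5, 73.4 and 74.7 to 54.6, 54.0 and 52.9 CPM.

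EGF added to OSM raised 6 members and lowered 1 (61.7% of genes called), EGF added to TGFB raised 8 and lowered 0 (69.4%), and EGF added to OSM+TGFB raised 6 and lowered 0 (52.2%). Its effect on CCN1 was 8.28-fold over PBS, 6.75-fold over TGFB, 2.32-fold over OSM and 1.89-fold over OSM+TGFB. For CCN2 these were 16.6, 5.18, 2.95 and 2.19-fold. AMOTL2 rose in all 4 settings, between 1.69 and 2.47-fold. EGF lowered LATS2 against PBS but not where OSM or TGFB was present (log2 0.03, -0.02 and 0.12, SE 0.05 each, adjusted p = 0.704, 0.7 and 0.0649), and the differences from its effect over PBS were called (0.31, 0.26 and 0.40, SE 0.08 each). Without replicate 2 of OSM+TGFB or replicate 3 of EGF+OSM+TGFB, EGF added to OSM+TGFB raised LATS2 (0.16 in both, 0.0372 and 0.0237). The member that fell with EGF added to OSM was ANKRD1 (0.0211), on 1 count in EGF+OSM, a call lost without replicate 2 of OSM (0.0884) or replicate 1 or 2 of EGF+OSM (0.0743 and 0.0915). The rise of WWTR1 with EGF added to OSM+TGFB (0.14 ± 0.05, 0.029) was lost without replicate 1 or 2 of either group compared (0.12 to 0.14, highest adjusted p = 0.118).

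The effect of OSM on the CCN genes turned with the setting. Against PBS it raised CCN1 and CCN2, and added to TGFB it raised them again, 2.03-fold (log2 1.02 ± 0.10 SE, adjusted p = 1.24e-08) and 1.63-fold (0.71 ± 0.10, 3.3e-06). Added to EGF it lowered them, 1.40-fold (-0.48 ± 0.10, 0.00072) and 1.56-fold (-0.65 ± 0.11, 3.95e-05). Added to EGF+TGFB it lowered them too, 1.76-fold (-0.82 ± 0.10, 7.78e-07) and 1.45-fold (-0.53 ± 0.10, 0.000194). In these 6 comparisons with another ligand present, the 3 libraries with OSM did not overlap with the 3 without.

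**Figure D3:**
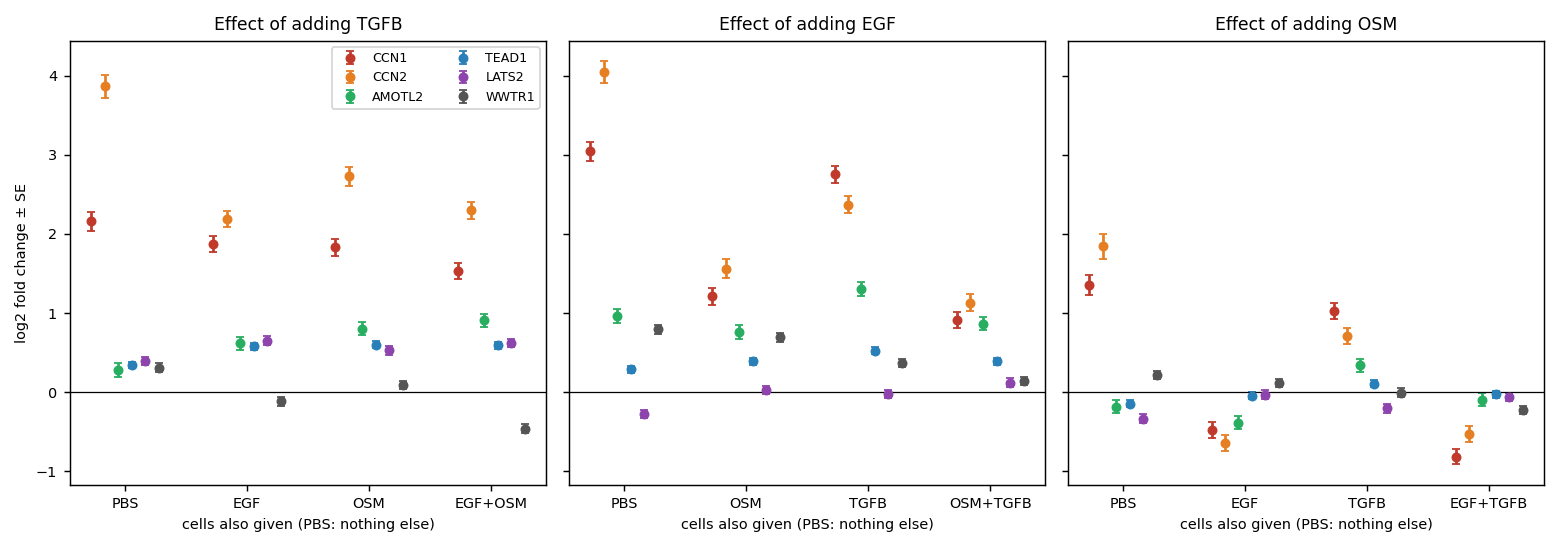
Log2 fold change ± SE (vertical axis) from adding TGFB (left), EGF (middle) or OSM (right) to cells that also received the ligands on the horizontal axis, for 6 genes (colours). Adding OSM gives CCN1 and CCN2 values above 0 over PBS and TGFB and below 0 over EGF and EGF+TGFB.

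Counted over the members, OSM added to EGF raised 1 and lowered 4 (34.9% of genes called), OSM added to TGFB raised 6 and lowered 2 (56.6%), and OSM added to EGF+TGFB raised 1 and lowered 4 (26.4%). With the size factors of DESeq2 in edgeR the first and last counts became 0 raised and 4 lowered, the first also under upper-quartile scaling, and the member that dropped out was YAP1 in both. For YAP1 with OSM added to EGF (0.13 ± 0.05 SE, adjusted p = 0.0473) the call was lost in 11 alternatives, including each left-out EGF library and replicates 1 and 3 of EGF+OSM (0.11 to 0.15, adjusted p up to 0.175). With OSM added to EGF+TGFB (0.16 ± 0.05, 0.0214) it was lost without replicate 2 or 3 of EGF+TGFB (0.14 and 0.11, 0.0938 and 0.214) or replicate 1 of EGF+OSM+TGFB (0.13, 0.114). AMOTL2 fell with OSM added to EGF (-0.39 ± 0.08, 0.000637) and rose with OSM added to TGFB (0.34 ± 0.08, 0.00126), with 97.9, 107 and 101 against 83.6, 75.5 and 75.2 CPM and 58.6, 63.2 and 68.9 against 71.0, 82.5 and 87.8 CPM. The rise of TEAD1 with OSM added to TGFB (0.11 ± 0.04, 0.037) was lost without replicate 1 or 3 of TGFB (0.10 and 0.09, 0.105 and 0.139) or replicate 1 or 2 of OSM+TGFB (0.11 and 0.09, 0.0726 and 0.126).

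The differences between settings were tested themselves. The effect of OSM over EGF minus that over PBS was -1.84 ± 0.16 for CCN1 and -2.49 ± 0.19 for CCN2 on the log2 scale (SE; adjusted p = 3.28e-09 and 3.63e-10), and over EGF+TGFB minus over PBS -2.17 ± 0.16 and -2.38 ± 0.19, where 47.5% of all genes were called. OSM over EGF+TGFB minus OSM over PBS was also called for WWTR1 (-0.45 ± 0.08), AJUBA (-0.40 ± 0.12), AMOTL1 (-0.16 ± 0.06) and LATS2 (0.27 ± 0.08). OSM over TGFB minus OSM over EGF was 1.504 ± 0.15 for CCN1, 1.35 ± 0.15 for CCN2, 0.73 ± 0.12 for AMOTL2 and 0.36 ± 0.06 for AMOTL1 (34.5% of genes called). The effect of OSM over EGF+TGFB minus that over TGFB was -1.84 ± 0.14 for CCN1 and -1.24 ± 0.14 for CCN2 (35.1%). It was also called for AMOTL2 (-0.44 ± 0.12), AMOTL1 (-0.39 ± 0.06) and WWTR1 (-0.22 ± 0.08). For TGFB, the WWTR1 effect over EGF+OSM minus that over PBS was -0.77 ± 0.08 (adjusted p = 1.57e-08, 44.4% called). This TGFB difference was called for every member but YAP1 (0.172), with values both above and below 0. Among them were CCN2 (-1.56 ± 0.18), CCN1 (-0.63 ± 0.16) and AMOTL2 (0.63 ± 0.12). EGF over TGFB minus EGF over OSM was called for ANKRD1, CCN1, CCN2, AMOTL2, AMOTL1 and WWTR1 (38.9% of genes called): 1.54 ± 0.15 for CCN1, 0.81 ± 0.16 for CCN2, 0.54 ± 0.12 for AMOTL2, 0.42 ± 0.06 for AMOTL1 and -0.33 ± 0.08 for WWTR1. EGF over OSM+TGFB minus EGF over OSM was called for ANKRD1 and WWTR1 (16.4%), at -0.55 ± 0.08 for WWTR1.

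How far a combination stood from its single ligands is given as a departure: the single-ligand log2 fold changes over PBS are added up and subtracted from that of the combination, which leaves 0 where the folds multiply. For a pair, this is the same contrast as the effect of 1 ligand over the other minus its effect over PBS. Values given above for such differences therefore reappear below and are not separate results. For EGF+OSM 1 member lay above that sum and 4 below (38.7% of all genes called). CCN1 and CCN2 were 3.57-fold (log2 -1.84 ± 0.16 SE, adjusted p = 3.28e-09) and 5.61-fold (-2.49 ± 0.19, 3.63e-10) below it. AJUBA was also below (-0.52 ± 0.12, 0.00139) and LATS2 above (0.31 ± 0.08, 0.00249). ANKRD1 was below as well, on 1 count in EGF+OSM, a call lost without replicate 2 of OSM (adjusted p = 0.0673) or replicate 1 or 2 of EGF+OSM (0.0583 and 0.0736).

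For EGF+TGFB 4 members lay above the sum and 3 below (29.8% called). AMOTL1 (0.30 ± 0.06 SE, adjusted p = 0.000563), TEAD1 (0.23 ± 0.06, 0.00493), LATS2 (0.26 ± 0.08, 0.012) and AMOTL2 (0.34 ± 0.12, 0.0308) were above, and CCN2 (-1.68 ± 0.18, 3.96e-07), AJUBA (-0.48 ± 0.12, 0.00432) and WWTR1 (-0.43 ± 0.08, 0.000128) below. CCN1, in spite of its 30.2-fold rise, was not told apart from the sum (-0.29 ± 0.16, 0.169). The LATS2 and TEAD1 calls were lost with only the compared groups in the fit (0.0646 and 0.0542), where CCN1 was called (-0.35, 0.0103). The AMOTL2 call was lost without replicate 2 or 3 of PBS, 1 or 3 of EGF, 1 or 2 of TGFB, or 2 of EGF+TGFB (0.28 to 0.33, adjusted p up to 0.0965).

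For OSM+TGFB 3 members lay above and 3 below (23.3% called). AMOTL2 (0.52 ± 0.12 SE, adjusted p = 0.00227), TEAD1 (0.26 ± 0.06, 0.00336) and AMOTL1 (0.23 ± 0.06, 0.00596) were above, and CCN2 (-1.14 ± 0.19, 0.000153), AJUBA (-0.48 ± 0.12, 0.00563) and WWTR1 (-0.22 ± 0.08, 0.0351) below. The WWTR1 call was lost in 9 alternatives, among them without replicate 3 of PBS (0.0923) or of OSM (0.147), replicate 1 or 2 of TGFB (0.0523 and 0.109) or replicate 1 or 2 of OSM+TGFB (0.0588 and 0.0913). CCN1 was not called (-0.33 ± 0.16, 0.154), but was without replicate 3 of OSM+TGFB (-0.48, 0.0183), the library in which it was highest.

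With the 3 ligands together, 3 members lay above the sum of the single responses and 5 below (48.0% called), a split of 4 and 4 under upper-quartile scaling. CCN2 was 16.6-fold below (-4.05 ± 0.30 SE, adjusted p = 1.44e-10) and CCN1 5.52-fold (-2.47 ± 0.24, 1.67e-08). WWTR1 (-0.87 ± 0.11, 2.92e-07) and AJUBA (-0.88 ± 0.17, 0.000187) were below, and LATS2 (0.53 ± 0.11, 0.000204) and TEAD1 (0.35 ± 0.09, 0.00146) above. The 2 weakest calls were AMOTL2 above (0.43 ± 0.17, 0.0386), lost in 11 alternatives, and YAP1 below (-0.25 ± 0.10, 0.0465), lost in 12. Without replicate 3 of PBS, for example, they were 0.32 (0.183) and -0.20 (0.172), and replicate 2 of PBS, replicates 1 and 3 of EGF, replicates 1 and 2 of TGFB and replicate 2 of EGF+OSM+TGFB each ended both calls when left out. The AMOTL2 call also ended without replicate 1 or 2 of OSM or replicate 1 of EGF+OSM+TGFB, and the YAP1 call without replicate 3 of OSM or of EGF+OSM+TGFB.

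**Figure D4:**
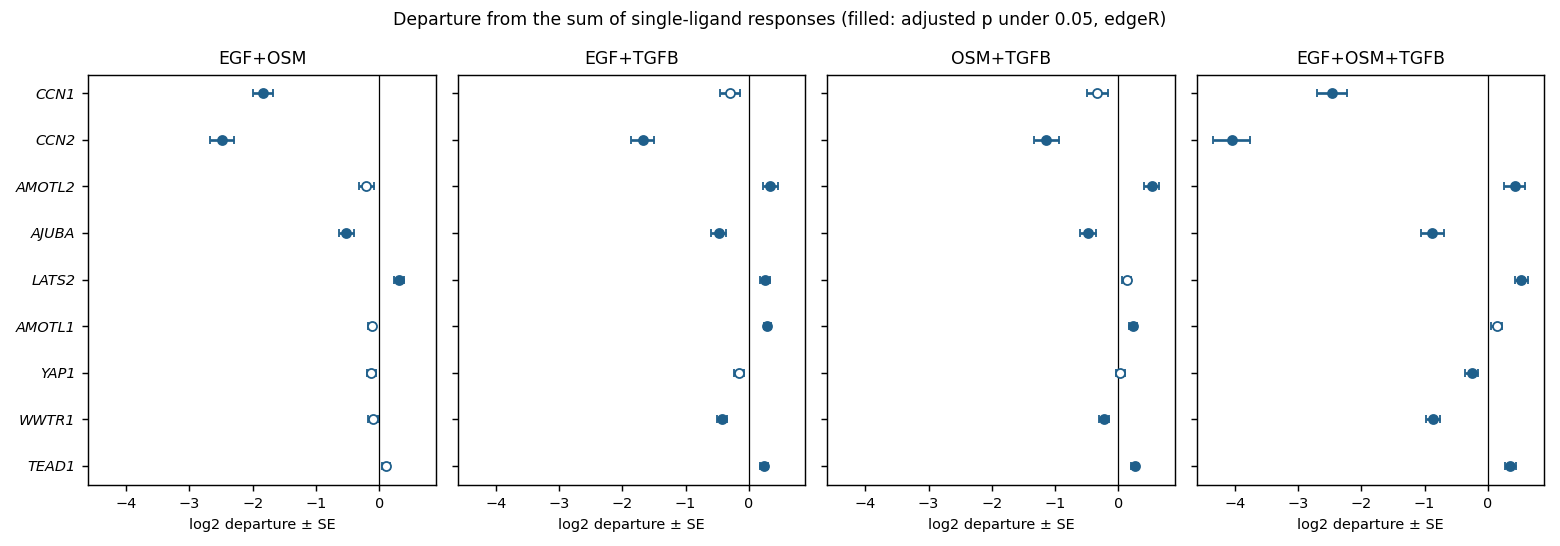
Departure from the sum of single-ligand responses (log2 ± SE, horizontal axis) for 9 genes in the 4 combinations; filled points have adjusted p under 0.05 by edgeR, and ANKRD1 is left out for its low counts. CCN2 lies below 0 in all 4 panels, from -1.14 to -4.05, while AMOTL1, AMOTL2 and TEAD1 are above 0 in both pairs that hold TGFB.

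For the 3-way interaction, the log2 departures of the 3 pairs are in turn subtracted from that of EGF+OSM+TGFB. It was called for 2 members, both above 0, where 3.90% of all genes were called. CCN2 stood at 1.25 ± 0.24 (SE, adjusted p = 0.00345). AJUBA (0.60 ± 0.17, 0.0495) lost its call in 24 alternatives, with adjusted p up to 0.102: among single libraries of the 8 groups in this contrast it held only without replicate 3 of PBS, replicate 2 of TGFB or replicate 1 of EGF+OSM+TGFB. For CCN1 the value was 0.00 ± 0.25. Without replicate 3 of EGF+TGFB the call for AJUBA was lost (0.0521) and those of AMOTL1 (-0.35, 0.0203) and TEAD1 (-0.32, 0.0354) were gained, both below 0.

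Across the 9 group means of log2 CPM, CCN1 and CCN2 had a Pearson r of 0.99, and CCN1 had 0.92 with AMOTL2 and 0.90 with AMOTL1. TEAD1 had 0.94 with both AMOTL1 and AMOTL2, and 0.89 and 0.91 with CCN1 and CCN2. YAP1 and WWTR1 had 0.80 with each other, but LATS2 had 0.06 with YAP1 and -0.09 with WWTR1. AJUBA had between 0.03 and 0.41 with the other 9 members. These describe 9 points whose genes share libraries and scaling.

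The genes most like each member over the 9 groups, among all genes tested, were also listed. They were SNX9 (r = 0.99), AVEN and ITCH for CCN1, APCDD1L (0.99), SEMA7A and AVEN for CCN2, NOG (0.95), SPINT2 and NEGR1 for ANKRD1, and KIFBP (0.99), SNX11 and KRT34 for AMOTL2. For AMOTL1 they were FERMT2 (0.99), TRAM1 and UEVLD, for TEAD1 TWF2 (0.99), FNDC3A and UBE2A, for YAP1 AKT1 (0.99), ALMS1 and NRG1, and for WWTR1 RFK (0.98), MSX1 and DOCK4. LATS2 was nearest to SMURF1 (0.98), ELF4 and SH3GLB1, and AJUBA to a gene without a symbol (0.88), AKNAD1 and PCNP. Only AVEN was near to 2 members, and no member was among the nearest genes of another. These r values compare shape and not size, and were picked as the highest among all genes tested. SNX9 spanned 0.63 log2 units over the groups against 5.04 for CCN1. AVEN spanned 0.50 and SEMA7A 6.38 against 6.21 for CCN2.

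Other genes described as YAP/TAZ targets, 16 in number, were split in direction except with TGFB alone. This list and those below were made with earlier results of these data known. EGF+OSM raised 7 and lowered 7, beside 37.6% and 39.6% of all genes tested. EGF raised 10 and lowered 4, OSM raised 9 and lowered 5, TGFB raised 10 and lowered 0, and EGF+TGFB raised 11 and lowered 3, with median log2 fold changes of 0.49, 0.46, 0.46 and 0.88. Over all genes tested, EGF raised 34.9% and lowered 38.6%, OSM 33.5% and 29.8%, TGFB 19.9% and 15.8%, and EGF+TGFB 36.2% and 37.5%. The medians over all genes were -0.07, 0.00, -0.01 and -0.04. NT5E, a cell-surface enzyme that makes adenosine, went from 16.6 ± 0.41 CPM in PBS to 357 ± 16.02 with EGF, 233 ± 64.4 with OSM and 964 ± 56.5 with all 3 ligands (SD, n = 3). F3, tissue factor, went from 30.7 ± 2.52 to 284 ± 34.9, 136 ± 26.3 and 764 ± 43.0 CPM. OSM added to EGF, which lowered CCN1 and CCN2, raised 4 of the 16 and lowered 5, beside 17.8% and 17.1% of all genes tested. AXL, a receptor tyrosine kinase, fell by 1.57 on the log2 scale (SE 0.08) and GADD45A, a stress-response gene, by 0.99 (SE 0.11), while NT5E and F3 rose by 0.71 (SE 0.13) and 0.60 (SE 0.12). TGFB2, a TGFB ligand, rose from 0.80 ± 0.33 to 7.52 ± 0.45 CPM with TGFB (log2 3.21 ± 0.26 SE) and to 23.8 ± 6.03 with EGF+TGFB. CCDC80, an extracellular matrix protein, fell with EGF (-1.93 ± 0.15) and OSM (-1.40 ± 0.14) and rose with TGFB (0.85 ± 0.14).

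The other TEAD factors and YAP partners were a list of 10 genes with mixed directions. EGF raised 3 and lowered 7, OSM raised 5 and lowered 4, TGFB raised 6 and lowered 1, and the median log2 fold changes were -0.68, 0.25 and 0.24. Over all genes tested, 73.5%, 63.4% and 35.6% were called in either direction, with medians of -0.07, 0.00 and -0.01. TEAD4 rose with EGF from 8.58 ± 0.36 to 24.9 ± 1.71 CPM and with OSM to 33.3 ± 0.40 CPM, where TEAD1 fell. TEAD2 rose with OSM (log2 0.90 ± 0.10 SE) and TGFB (1.15 ± 0.10), reached 80.2 ± 6.31 CPM in OSM+TGFB from 21.4 ± 0.88, and fell with EGF (-0.42 ± 0.10). VGLL1, a TEAD-binding cofactor, fell in all 7 treatments, but from only 1.61 ± 0.29 CPM. AMOT, the remaining angiomotin, reached at most 15 counts in a library.

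Hippo kinases and scaffolds upstream of YAP made a list of 14 genes. EGF raised 10 and lowered 3, OSM raised 8 and lowered 3, TGFB raised 7 and lowered 2, and EGF+TGFB raised 11 and lowered 0, with medians of 0.39, 0.26, 0.17 and 0.58. Of all genes tested, OSM raised 33.5% and lowered 29.8%, and TGFB raised 19.9% and lowered 15.8%, beside the shares for EGF and EGF+TGFB given above. WWC1 (KIBRA), an upstream scaffold, rose with OSM from 45.4 ± 4.16 to 307 ± 20.8 CPM (log2 2.76 ± 0.08 SE, adjusted p = 2.56e-19) and fell with TGFB (-0.23 ± 0.08, 0.0297). MAP4K4, a kinase that acts on LATS, rose in all 7 treatments, from 192 ± 12.1 CPM to 503 ± 2.31 with EGF and 678 ± 32.9 with EGF+OSM. FRMD6, a scaffold, rose 1.83 ± 0.07 on the log2 scale with EGF+TGFB.

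**Figure D5:**
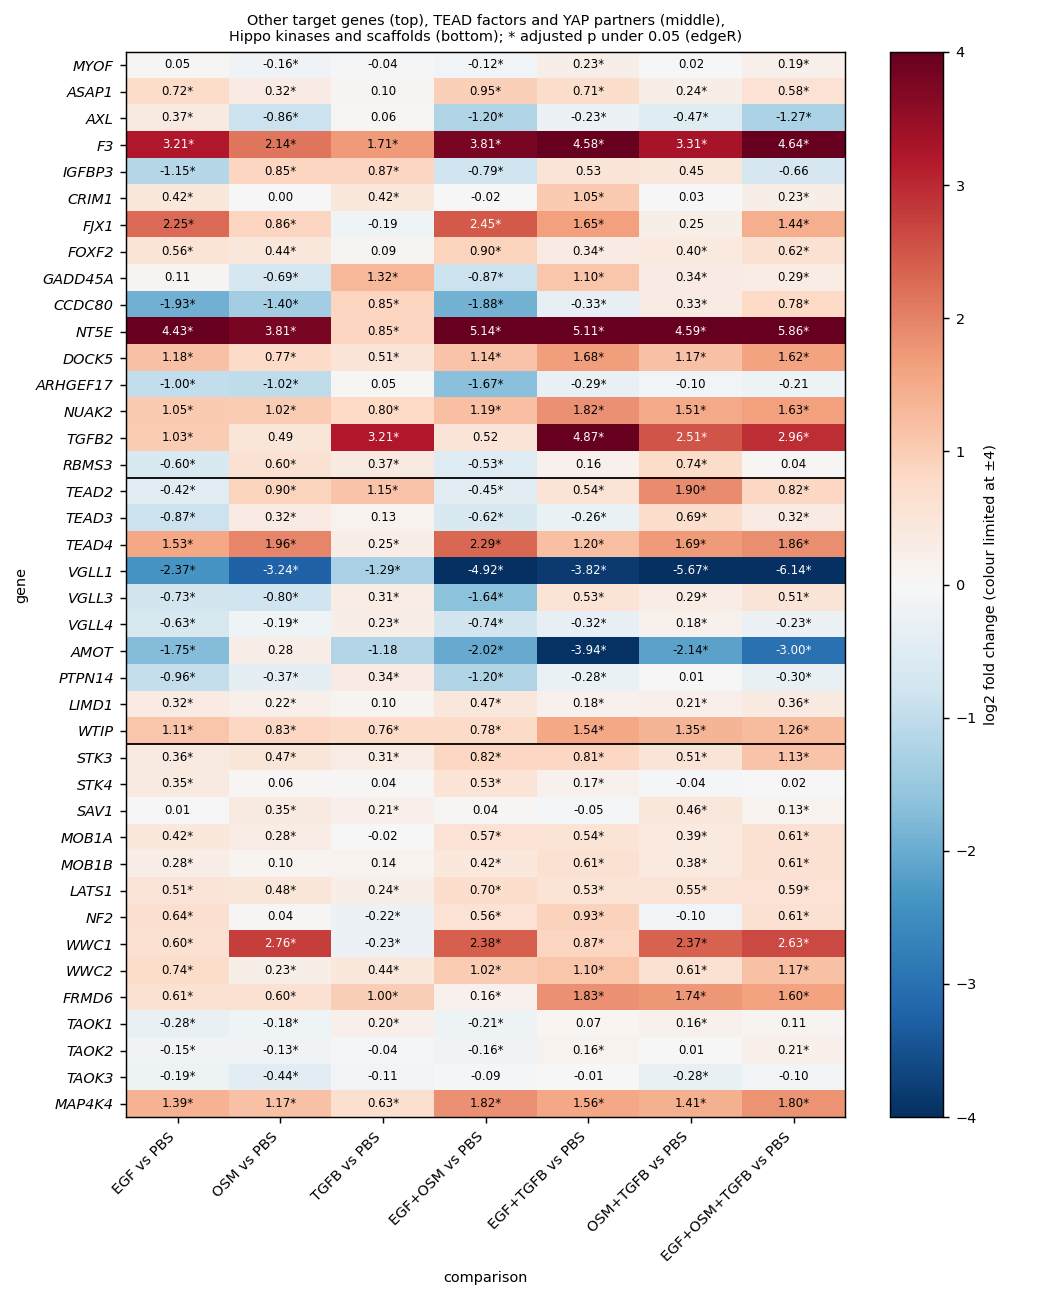
Log2 fold change over PBS in the 7 treatments (horizontal axis) for 16 other targets (top), 10 TEAD factors and YAP partners (middle) and 14 Hippo kinases and scaffolds (bottom), coloured on a scale limited at ±4, with asterisks for adjusted p under 0.05 by edgeR. NT5E and F3 are called above PBS in all 7 columns, VGLL1 below in all 7, and TEAD2 and TEAD3 change sign between columns.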

How the data were processed

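Poly(A) RNA of 27 MCF10A libraries had been sequenced with a stranded kit, per the labels' protocols. The authors deposited 1 table of estimated counts per gene. The submitters' processing notes name Trim Galore 0.4.3, cutadapt 1.10, FastQC 0.11.5, kallisto 0.46.2, R 3.5.0 and the builds GRCh38.p5 and hg38, without their roles. How transcript estimates were joined into genes is not given in the sources used here. The values were rounded to whole numbers, and the 40487 table rows were summed by symbol to 36536 genes. Rows without a symbol, kept under their gene identifier, held 0.324% of counts.

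Groups came from the sample titles. Genes with low counts were removed (filterByExpr), 15575 remained, libraries were scaled by TMM (factors 0.867 to 1.12), and edgeR 4.0.16 in R 4.3.3 fitted 1 mean per group over all 27 libraries with its robust quasi-likelihood test. P-values were adjusted by Benjamini-Hochberg over all 15575 genes. Totals of 30.1 to 52.9 M counts per library set the precision, which is lowest for ANKRD1. Fitted fold changes used a prior count of 0.125. ANKRD1 ratios have exact conditional 95% intervals.

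All 10 members are named, and so are the 3 genes with the highest Pearson r to each member over the 9 group means of log2 CPM (prior count 2). Each gene named from the lists of other pathway genes was among the 3 called genes of largest change in at least 1 comparison. Not all such genes are named, and their values in further comparisons were added by choice. The members and lists were chosen with earlier results of these data known. Alternatives were other scalings (DESeq2 size factors, upper quartile), no filter, a replicate block, unsummed rows, DESeq2 1.42.0, only the groups compared, and leaving out each library. Promoters are from RefSeq (GRCh38.p14), and 8 of the 10 members matched an entry.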

Additional observations from a re-analysis of the deposited data

Results flagged for a closer look

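These values are listed because a ligand raised a member in 1 setting and lowered it in another, both effects were called, and the difference between the effects was itself called by edgeR's quasi-likelihood test. Groups of 3 libraries are too small for a test of single outlying libraries.

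For CCN1, the log2 effect of OSM over EGF minus that over PBS was -1.84 (SE 0.16), over EGF+TGFB minus over PBS -2.17 (SE 0.16), over TGFB minus over EGF 1.504 (SE 0.15), and over EGF+TGFB minus over TGFB -1.84 (SE 0.14). The corresponding CCN2 differences were -2.49 (SE 0.19), -2.38 (SE 0.19), 1.35 (SE 0.15) and -1.24 (SE 0.14). For AMOTL2, the effect of OSM over TGFB minus that over EGF was 0.73 (SE 0.12).

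TEAD1 fell with OSM over PBS and rose with OSM over TGFB, a difference of 0.26 (SE 0.06), although the rise over TGFB was lost in 9 alternatives. WWTR1 rose with OSM over PBS and fell with OSM over EGF+TGFB, a difference of -0.45 (SE 0.08), and it rose with TGFB over PBS and fell with TGFB over EGF+OSM, a difference of -0.77 (SE 0.08). For ANKRD1, the effect of EGF over TGFB minus that over OSM was 4.70 (SE 0.94), and over OSM+TGFB minus over OSM 4.35 (SE 1.03). Both ANKRD1 values rest on 1 count in EGF+OSM and depend on the prior count.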

How the results depend on the processing

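Of 3292 values of the 220 member results under alternatives, 3123 kept their side of the threshold, and their direction where called. Another 134 lost a call, 35 gained one and 0 reversed. Values called neither in the main fit nor in the alternative were not compared in direction. Of the 156 called results, 135 kept their call in every alternative run. For 20 of the 22 comparisons no alternative moved the count of members called by over 1.5 times. The 3-way interaction had 2 members called, against 1 with DESeq2 size factors in edgeR, 1 with no filter, 1 with rows as deposited, 4 with DESeq2 and 1 to 3 without single libraries. PBS against T0 had 4 called, against 1 with no filter, 1 with only the groups compared and 1 to 3 without single libraries. The cause was not tested.

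Libraries with the same replicate number shared a small deviation. Over 108 pairs of libraries with the same number, deviations from group means had a median r of 0.0574 (-0.0265 to 0.178). For other numbers the median was -0.0296, and 26 of 27 libraries correlated best with their own number. The r values fell short of the rule used for pairing, and the main fit had no replicate term. The labels do not say what a replicate number stands for. With the replicate block 19 of the 22 counts were identical, and 0 moved by over 1.5 times: the 3-way interaction had 3 members called, with AMOTL1 gained (adjusted p = 0.0413), and PBS against T0 had 4, with CCN2 lost (0.0711) and LATS2 gained (0.0423). The block also gained AMOTL2 for OSM against PBS (0.0344), and LATS2 and AMOTL1 for EGF added to OSM+TGFB (0.0347 and 0.0466), and changed no other member call. Depth limits mainly ANKRD1, with at most 50 counts in a library.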
